A study of Mus musculus with 8 samples.

Results

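White adipocytes store triglyceride in a single large lipid droplet and secrete signalling proteins, the adipokines, into the blood. Small numbers of them lie between the bundles of skeletal muscle and in the fat that surrounds it, so RNA from whole muscle carries some of their transcripts. A set of 10 adipocyte genes was examined in gastrocnemius, a calf muscle, of mice without the histone deacetylase HDAC5: the secreted proteins Adipoq, Lep, Retn and Cfd, the lipid droplet proteins Plin1, Plin4 and Cidec, the fatty acid carrier Fabp4, the carbonic anhydrase Car3 and the nuclear receptor Pparg. The genes were chosen by name as known adipocyte genes and not by a threshold on their values, but with earlier results of these data known. A gene was read from the probe set that the platform annotation pairs with its symbol alone, and 9 of the 10 had 1 such probe set each, among 19938 genes read in that way. Cfd, which encodes adipsin, the complement protease that cleaves factor B, had 0 such probe sets and is not analysed here. Of the 9, all but Lep had a mean signal above that of the median gene.

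The study comprised 8 Affymetrix arrays, 4 from mice with the genotype label HADAC5 KO, a spelling that the protocols give as HDAC5 KO, and 4 from littermates labelled HDAC5 WT. All animals were 30 weeks old, ate low-fat chow freely and received no further treatment. The sex of the animals and the deleted part of the gene are not given in the labels. The labels number the samples 1 to 4 within a genotype without stating that each is another animal, and the tests can only weigh differences against sample-to-sample spread, which may be technical. The submitters asked about the role of HDAC5 in the transcription of the cytokine gene Il6 and of the genes that IL-6 regulates.

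The values are log2 signals, on which a difference of 1 is a doubling of signal. Hdac5 itself read 8.32, 8.31, 8.31 and 8.39 in knockout samples 1 to 4, against 9.94, 9.76, 9.83 and 9.80 in wild type samples 1 to 4, so each label matched its targeted gene. Markers that define muscle fibres were near the top of the scale on every array: the mean of 9 fibre genes lay between 14.32 and 14.36 in knockout and between 14.35 and 14.38 in wild type samples. Arrays correlated pairwise at 0.988 to 0.995 over all probe sets. Wild type samples 2 and 3 stood apart for most of the adipocyte genes: 7 of 9 had their highest value in wild type sample 2, beside 9.39% of all genes, and 6 of 9 their lowest in wild type sample 3, beside 9.32% of all genes. Plin4 and Car3 were exceptions to both, and Pparg to the second.

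No adipocyte gene separated the genotypes, while some of them had among the largest spreads between samples of a genotype of all genes tested. Of the 9 genes measured, 0 rose and 0 fell at a limma adjusted p under 0.05, beside 0.0652% of all genes (13 of 19938). At an unadjusted p under 0.05 the count was also 0 of 9, beside 7.90% of all genes. In 0 of the 9 did all samples of the genotypes lie apart, beside 4.90% of all genes. The mean of 4 genes was higher and that of 5 lower in knockout muscle, and the median difference over the 9 was -0.05, beside 0.0030 over all genes.

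Adipoq, which encodes adiponectin, a hormone that raises insulin sensitivity in liver and muscle, read 8.70, 8.78, 9.38 and 9.00 in knockout samples 1 to 4, against 8.95, 10.15, 6.88 and 8.70 in wild type samples 1 to 4. The knockout samples fell inside the wild type range, because wild type sample 2 was the highest and wild type sample 3 the lowest of all 8. These 2 wild type samples lay 3.27 log2 units apart, or 9.61-fold in signal, whereas the 4 knockout samples spanned 0.68. The mean difference was 0.30 (SE 0.49, 95% interval -0.78 to 1.38, limma adjusted p = 0.927), with means of 8.96 ± 0.30 in knockout and 8.67 ± 1.35 in wild type muscle (SD, n = 4 each). In linear terms the interval ran from 0.581 to 2.59 times the wild type signal, so a doubling of adiponectin transcript lay inside what these 8 arrays could not resolve.

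Retn, which encodes resistin, a protein made by mouse white adipocytes, repeated that order. It read 9.51, 9.22, 9.75 and 9.07 in knockout samples 1 to 4, against 9.74, 10.57, 7.76 and 9.67 in wild type samples 1 to 4. Wild type samples 2 and 3 were again the ends of the range, 7.03-fold apart. Knockout and wild type means were 9.39 ± 0.30 and 9.43 ± 1.19 (SD, n = 4 each), a difference of -0.05 (SE 0.44, 95% interval -1.01 to 0.91, limma adjusted p = 0.993).

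Lep, which encodes leptin, the hormone that reports fat stores to the hypothalamus, had a second high sample. It read 7.31, 7.64, 7.67 and 8.76 in knockout samples 1 to 4, against 7.78, 9.11, 7.24 and 7.87 in wild type samples 1 to 4. Knockout sample 4 was thus high for Lep, although it was the lowest knockout sample for Retn. The difference was -0.16 (SE 0.36, 95% interval -0.95 to 0.64, limma adjusted p = 0.948). Wild type sample 2 and knockout sample 4 were well above the 6 others.

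Cidec encodes a protein of the droplet surface through which small lipid droplets pass triglyceride to larger ones. It read 8.54, 8.67, 9.07 and 8.60 in knockout samples 1 to 4, against 8.61, 9.48, 7.73 and 8.47 in wild type samples 1 to 4. As for Adipoq, all 4 knockout samples lay between wild type samples 3 and 2. The difference was 0.14 (SE 0.27, 95% interval -0.45 to 0.74, limma adjusted p = 0.936).

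Plin1 encodes the perilipin that coats adipocyte droplets and holds back their lipases until adrenergic stimulation. It read 7.99, 8.26, 8.31 and 8.05 in knockout samples 1 to 4, against 8.42, 9.07, 7.94 and 8.15 in wild type samples 1 to 4. The range was narrower here, 1.13 over the wild type samples and 0.32 over the knockout samples. The difference was -0.24 (SE 0.19, 95% interval -0.66 to 0.17, limma adjusted p = 0.817).

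Plin4, a perilipin of nascent droplets that is also abundant in muscle, behaved in another way. It read 10.56, 10.79, 10.77 and 10.80 in knockout samples 1 to 4, against 10.68, 10.79, 10.57 and 10.43 in wild type samples 1 to 4. Wild type sample 4, not 3, was the lowest. The difference was 0.11 (SE 0.08, 95% interval -0.07 to 0.30, limma adjusted p = 0.806), the smallest adjusted p of the 9 genes.

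Fabp4 carries fatty acids in adipocytes and is also made by capillary endothelium and macrophages. It read 11.78, 12.00, 11.76 and 11.82 in knockout samples 1 to 4, against 11.73, 12.03, 11.68 and 11.71 in wild type samples 1 to 4. Its highest values were in knockout sample 2 and wild type sample 2, which also had the highest mean of 10 endothelial markers within their genotypes, 10.06 and 10.04. The remaining knockout samples had endothelial means of 9.76 to 9.99, and the remaining wild type samples 9.84 to 9.96. The parts of endothelial cells and macrophages in the Fabp4 signal were not tested. The difference was 0.05 (SE 0.09, 95% interval -0.13 to 0.24, limma adjusted p = 0.923).

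Car3, a carbonic anhydrase abundant in both adipocytes and slow muscle fibres, was among the brightest genes of the array, with a mean of 14.34 where the highest value of any probe set was 14.84. It read 14.33, 14.21, 14.44 and 14.28 in knockout samples 1 to 4, against 14.38, 14.34, 14.38 and 14.38 in wild type samples 1 to 4. The wild type samples agreed within 0.05 and lay inside the knockout range. The difference was -0.06 (SE 0.06, 95% interval -0.19 to 0.08, limma adjusted p = 0.872). Markers of slow fibres, the other source named above, had means of 10.82 to 11.41 in knockout and 11.42 to 11.81 in wild type samples, groups that did not overlap. Of the 10, 9 were lower and 1 was higher in mean in knockout muscle, with a median difference of -0.56 on the log2 scale. All 10, the higher 1 included, had an unadjusted limma p under 0.05, beside 7.90% of all genes. After adjustment 0 passed. The part of slow fibres in the Car3 signal was not tested.

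Pparg, the transcription factor that drives adipocyte differentiation, read 8.39, 8.48, 8.57 and 8.53 in knockout samples 1 to 4, against 8.49, 8.72, 8.42 and 8.59 in wild type samples 1 to 4. The groups overlapped in part, with wild type samples 2 and 4 above every knockout sample and knockout sample 1 below every wild type sample. The difference was -0.07 (SE 0.07, 95% interval -0.23 to 0.09, limma adjusted p = 0.876). By exact 2-sided permutation of the 8 samples, single members gave unadjusted p-values between 0.343 and 0.943, where 70 arrangements allow no p under 0.0286.

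**Figure D1:**
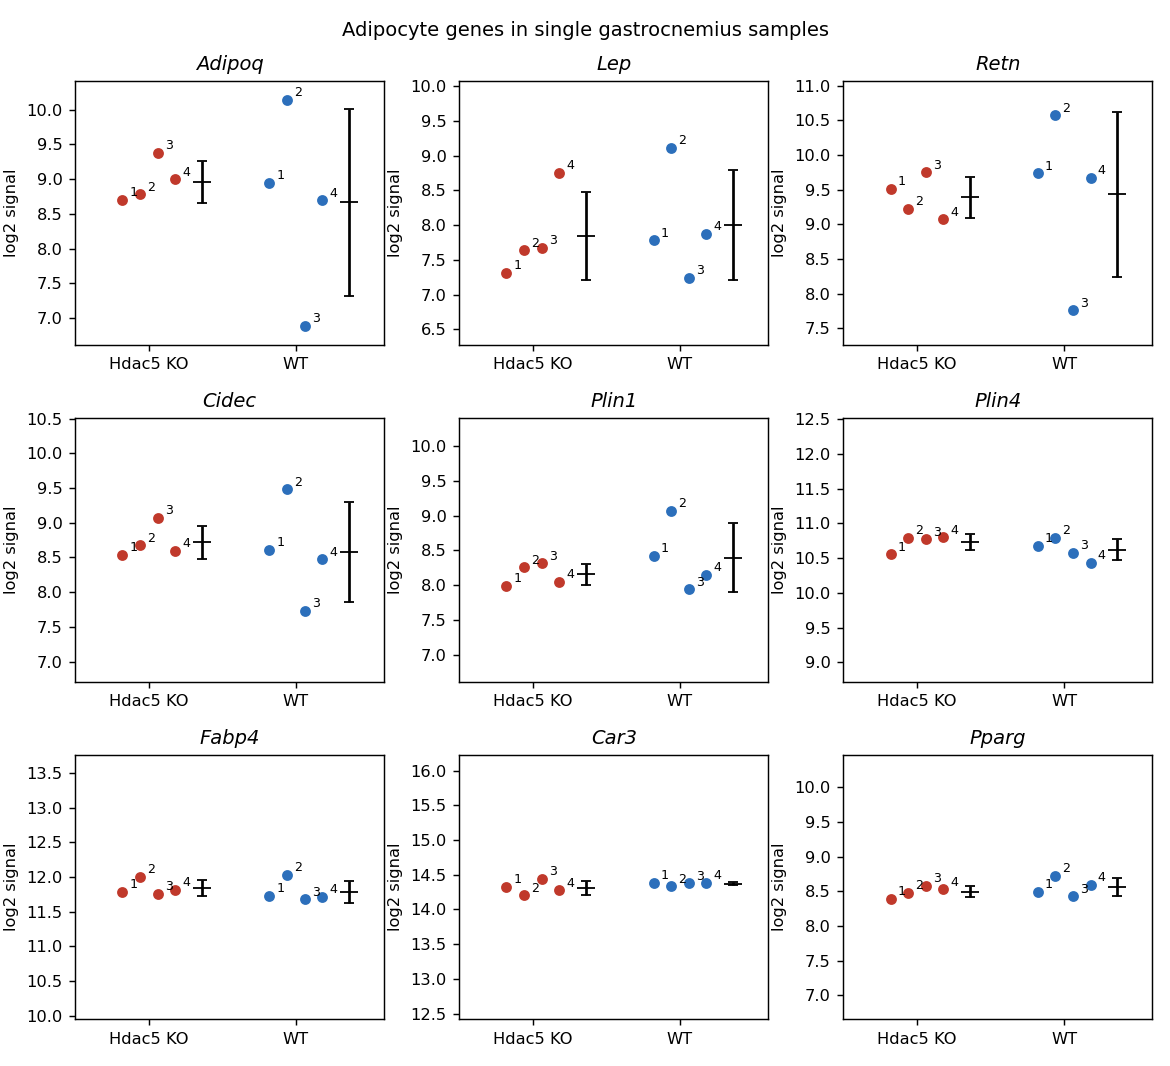
Log2 signal of the 9 measured adipocyte genes in each sample, with knockout samples as red and wild type samples as blue points numbered as in the labels; the horizontal bar and whiskers are the mean and SD of 4 samples, and all panels span the same number of log2 units. Wild type samples 2 and 3 lie farthest apart for Adipoq (10.15 and 6.88), and the panels of Plin4, Fabp4, Car3 and Pparg show little spread.

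**Figure D2:**
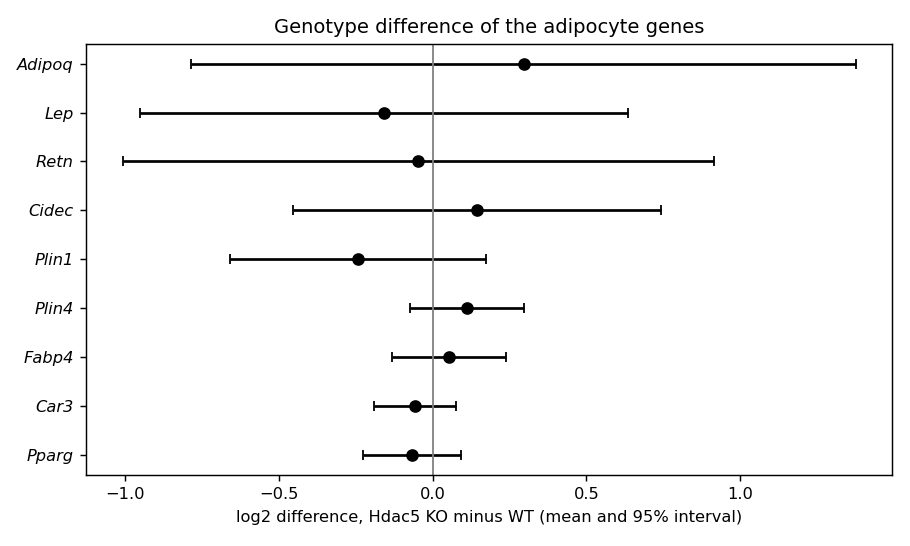
Difference in log2 signal, knockout minus wild type, for each measured adipocyte gene, with the point as the mean and the bar as limma's 95% interval. All 9 intervals include 0, and the widest, that of Adipoq, runs from -0.78 to 1.38.

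The spread between single arrays split the set in a way that genotype did not. The within-genotype standard deviation (SD), pooled over both groups, was 0.98 for Adipoq, 0.87 for Retn, 0.72 for Lep, 0.54 for Cidec and 0.37 for Plin1, beside a median of 0.101 over all genes. Ranked from the largest SD among the 19938 genes, Adipoq was number 5, Retn 9, Lep 11, Cidec 21 and Plin1 84, so these 5 lay in the top 1%. Fabp4 (0.138), Plin4 (0.136), Pparg (0.107) and Car3 (0.071) ranked between 4526 and 15833.

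The large spread was greater in the wild type group but was not confined to it. Among the knockout SDs of all genes, counted from the smallest, Lep lay at percentile 99.9, Adipoq at 98.9 and Retn at 98.8. Cidec lay at percentile 97.0 and Plin1 at 83.5, and the median knockout SD over all genes was 0.096. For Adipoq the SD was 0.30 in knockout and 1.35 in wild type samples, a wild type SD 4.46 times as large, and the ratio was 3.96 for Retn, 3.17 for Plin1, 3.01 for Cidec and 1.26 for Lep. In all, 8 of the 9 genes had the larger SD in wild type, with Car3 the exception, beside 48.2% of all genes. Leaving out wild type samples 2 and 3, chosen after seeing the data as the extremes, lowers the wild type SD by construction. The remaining pair gave 0.18 for Adipoq, 0.05 for Retn, 0.06 for Lep and 0.10 for Cidec (n = 2), and the knockout SDs of these genes were 0.30, 0.30, 0.63 and 0.24. For Plin1 and Plin4 the wild type SD stayed the larger: the knockout SDs were 0.16 and 0.12, and those of the wild type pair 0.20 and 0.17. Whether the genotypes differ in spread was not tested.

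**Figure D3:**
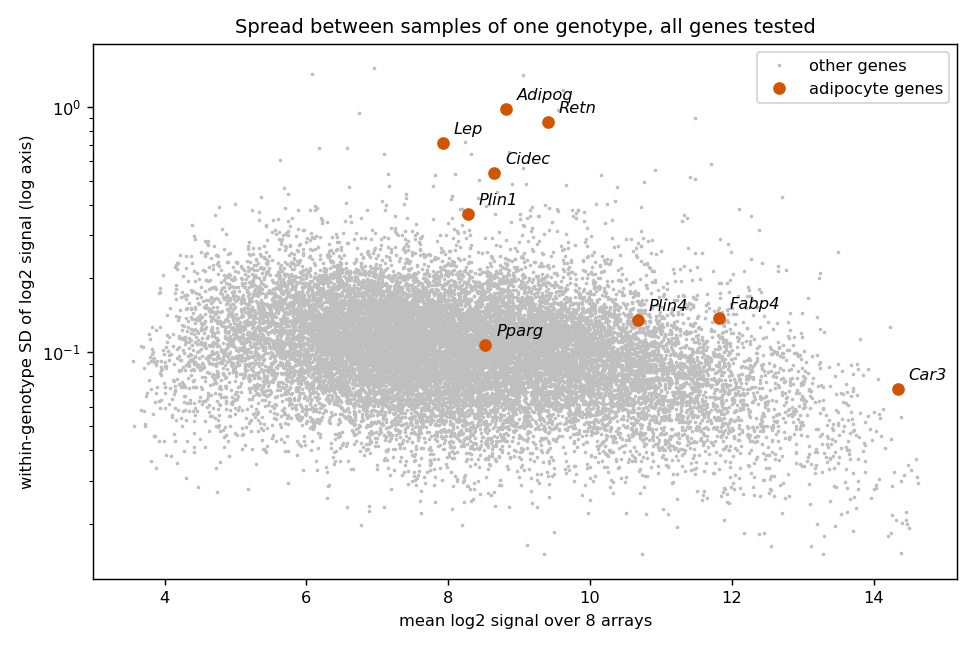
Within-genotype standard deviation of log2 signal (log axis) against mean log2 signal for each of the 19938 genes, with the 9 adipocyte genes in orange. Adipoq, Retn, Lep, Cidec and Plin1 lie above the bulk of genes of like signal. Pparg, Plin4, Fabp4 and Car3, at 0.071 to 0.138, lie nearer the median of 0.101 over all genes of any signal. Car3 still lies above the 9 muscle fibre genes, which are of similar brightness and run from 0.015 (Tnnt3) to 0.048 (Mb).

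Averaged over all 9 measured genes, the signal was 9.68, 9.78, 9.97 and 9.88 in knockout samples 1 to 4, against 9.87, 10.47, 9.18 and 9.78 in wild type samples 1 to 4. Averaged over the 5 genes of largest spread, whose range their choice makes wide, it was 8.41, 8.51, 8.84 and 8.70 in knockout samples 1 to 4, against 8.70, 9.68, 7.51 and 8.57 in wild type samples 1 to 4. The knockout samples stayed within 0.43 of each other, and wild type samples 1 and 4 lay inside their range. The group means were 8.61 ± 0.19 in knockout and 8.62 ± 0.89 in wild type muscle (SD, n = 4 each), a difference of -0.0012. The other 4 genes averaged 11.34 ± 0.05 in knockout and 11.33 ± 0.09 in wild type muscle, a difference of 0.01. In RNA from whole muscle, fewer adipocytes and less RNA per adipocyte cannot be told apart. The mean difference over the 9 genes, 0.0040 with all samples, was 0.22 without wild type sample 2 and -0.21 without wild type sample 3, so its sign followed whichever of these arrays was kept.

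Of 8 members set against Adipoq from array to array, Cidec passed on both measures of correlation. Over the 8 samples Cidec correlated with Adipoq at a Pearson r of 0.97 and a Spearman rho of 0.90, with exact permutation p-values of 0.00992 and 0.0365 after Benjamini-Hochberg adjustment over the 16 relations computed. Without wild type samples 2 and 3, the samples farthest from the median of Adipoq, r was still 0.91 over 6 samples. Retn correlated at r = 0.94 (adjusted exact permutation p = 0.0369) but at rho = 0.67 (adjusted exact p = 0.121), and its r was 0.24 without those samples. For Lep, r was 0.70 with all samples and 0.20 without the same pair. Leaving out the extremes of Adipoq narrows its range, which can by itself lower r, so no conclusion is drawn from the lower values.

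Plin1 had r = 0.75, rho = 0.76 and r = 0.45 without these samples, and Pparg had r = 0.72, rho = 0.60 and r = 0.44. Fabp4 had r = 0.61, rho = 0.69 and r = -0.18, Plin4 had r = 0.52, rho = 0.76 and r = 0.61, and Car3 had r = -0.05, rho = 0.07 and r = 0.48. For these 5 genes and Lep the adjusted exact permutation p-values lay between 0.118 and 0.897, which does not pass.

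The promoters of the 5 variable genes are shown because these transcripts had the largest spread between samples in the set. Each line gives the 150 bases before the start site on the gene's own strand, from RefSeq's annotation of GRCm38.p6. Capitals mark matches, on either strand, to the C/EBP motif TTGCNNAA, the nuclear receptor half-site AGGTCA or the TATA box TATAAA. The regions are chr16:23146386-23146535 for Adipoq, chr8:3655620-3655769 for Retn and chr6:29060071-29060220 for Lep, all on the plus strand, and chr6:113435761-113435910 for the first of 2 Cidec starts and chr7:79732777-79732926 for Plin1, both on the minus strand.
Adipoq: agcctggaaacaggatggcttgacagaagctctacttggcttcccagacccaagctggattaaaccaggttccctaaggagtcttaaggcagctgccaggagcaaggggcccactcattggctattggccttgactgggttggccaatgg
Retn: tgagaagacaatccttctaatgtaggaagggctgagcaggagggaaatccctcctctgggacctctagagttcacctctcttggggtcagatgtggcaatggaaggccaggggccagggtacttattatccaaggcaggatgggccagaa
Lep: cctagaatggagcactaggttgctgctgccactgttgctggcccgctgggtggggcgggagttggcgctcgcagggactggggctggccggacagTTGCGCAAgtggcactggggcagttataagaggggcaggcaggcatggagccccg
Cidec: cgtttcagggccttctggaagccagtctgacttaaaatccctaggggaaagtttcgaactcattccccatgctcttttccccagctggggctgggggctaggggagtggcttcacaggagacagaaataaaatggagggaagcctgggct
Plin1: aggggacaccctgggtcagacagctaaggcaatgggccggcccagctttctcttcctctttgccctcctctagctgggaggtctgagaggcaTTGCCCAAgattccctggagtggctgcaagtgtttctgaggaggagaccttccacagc

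C/EBP factors act with PPARG in adipocyte differentiation. Lep holds the full palindrome TTGCGCAA starting 55 bases before its start site and Plin1 holds TTGCCCAA starting 58 bases before, while the 3 other windows printed hold no capital. The table held 10 promoters of 7 of the 9 measured genes, without Fabp4 and Car3. Over the 250 bases before the start site, 4 of the 10 held the C/EBP motif, beside 9.56% of all 32851 promoters, and 2, both of Pparg, held the half-site, beside 14.0% of all. The motif of MEF2, the factor that class IIa deacetylases repress, was in 0 of the 10, beside 2.92% of all promoters. A match is a run of letters and not a measured binding site.

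Genes with a profile like Adipoq were sought among all other genes of above-median signal. The 10 with the highest Pearson r over the 8 samples had r between 0.92 and 0.97, and they are given as a description because r chose them. The first was Cdo1, cysteine dioxygenase, at r = 0.97, which read 8.35, 8.06, 8.76 and 8.26 in knockout samples 1 to 4, against 8.51, 9.13, 7.08 and 8.40 in wild type samples 1 to 4. Scd1, the desaturase that makes oleate, had r = 0.95 and read 11.58, 11.49, 11.93 and 11.04 in knockout samples 1 to 4, against 11.70, 12.67, 9.76 and 11.66 in wild type samples 1 to 4. Its range over 8 samples was 2.91, beside 3.27 for Adipoq.

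Trf, the iron carrier transferrin, had r = 0.96, Aoc3, an amine oxidase of adipocytes and smooth muscle, 0.96, and Hp, the haemoglobin scavenger haptoglobin, 0.94. The gene model 5730408K05Rik had r = 0.93. These genes ranged over 1.03 to 1.64 on the log2 scale and shared wild type samples 2 and 3 as their highest and lowest. The last 4 were Aacs, Hnrnpa0, Bcar3 and Ormdl3, which ranged over only 0.24 to 0.49. Without wild type samples 2 and 3, r was 0.70 for Cdo1, 0.56 for Trf, 0.54 for Aoc3, 0.30 for Scd1 and 0.63 for Hp. It was 0.38 for 5730408K05Rik, 0.85 for Aacs, 0.81 for Hnrnpa0, 0.33 for Bcar3 and 0.16 for Ormdl3. None of the 10 passed in the genotype comparison, with limma adjusted p-values between 0.759 and 0.996 (the smallest that of Hp, at a difference of 0.42).

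**Figure D4:**
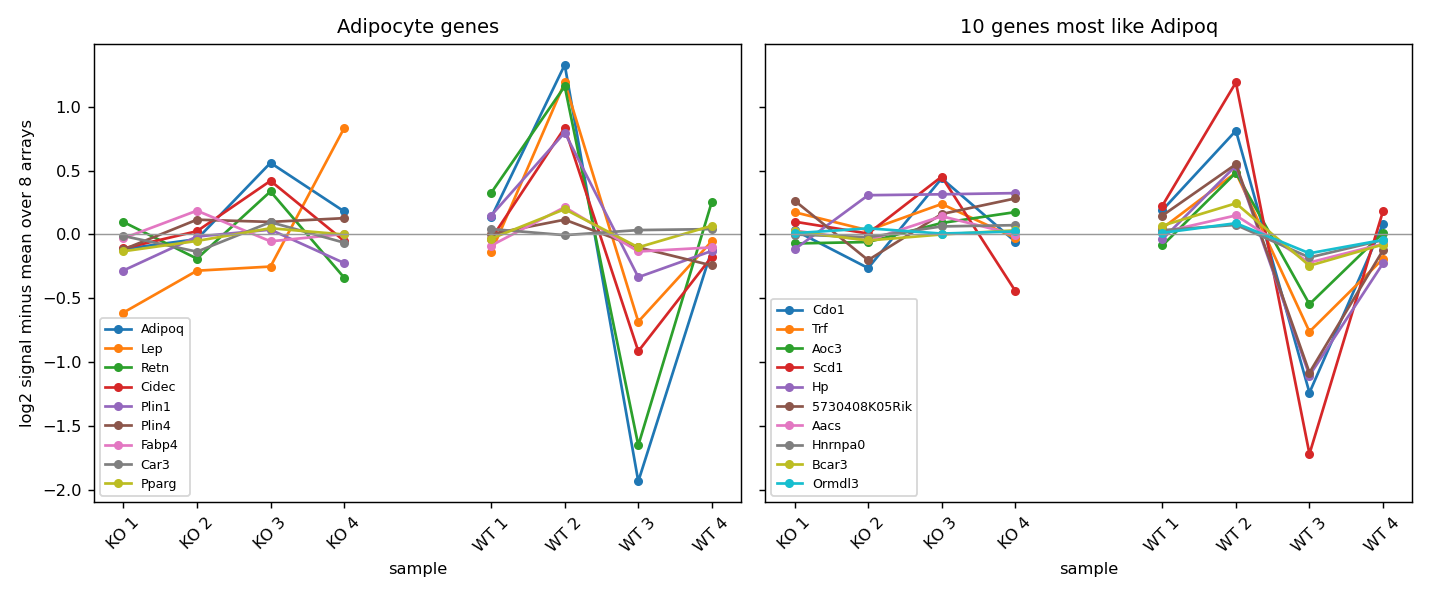
Log2 signal of each gene minus its mean over 8 arrays, by sample, for the 9 measured adipocyte genes (left) and the 10 genes whose values were most like Adipoq (right); lines join the values of 1 gene within a genotype for tracing only. The 10 genes of the right panel peak in wild type sample 2 and dip in wild type sample 3, as Adipoq does.

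Further adipocyte genes outside the set also gave no call by genotype, and wild type samples 2 and 3 were again often the extremes. Of 17 measured genes from a second list of adipocyte markers, 0 passed in either direction, 7 had a higher and 10 a lower mean in knockout muscle, and the median difference was -0.09. Wild type sample 2 was the highest for 14 of the 17 and wild type sample 3 the lowest for 10. Below-median signal was found for 8 of the 17. The mean of the list was 8.10 to 8.31 in knockout and 7.95 to 8.62 in wild type samples. Sncg, a synuclein abundant in white fat, differed by -0.25 (SE 0.17, limma adjusted p = 0.787). Adig, a small adipocyte protein, differed by -0.14 (SE 0.08, limma adjusted p = 0.719). The within-genotype SD of Adig was 0.13, near the median of 0.101 over all genes, so the large spread was not shared by every gene of the list. Lipe, the hormone-sensitive lipase, differed by 0.09 (SE 0.08). Aqp7, the glycerol channel, is also expressed in muscle and spanned 10.19 to 10.28 in knockout and 10.17 to 10.29 in wild type samples. Of 6 brown adipocyte markers 0 passed, 5 of the 6 had below-median signal, and the thermogenic protein Ucp1 lay at 6.53 to 6.65 in knockout and 6.46 to 6.67 in wild type samples.

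Enzymes that make fatty acids and triglyceride had 16 measured genes and 0 past the threshold, with a median difference of 0.02. Wild type sample 2 was highest for 8 of them and wild type sample 3 lowest for 10. The list mean was 10.03 to 10.29 in knockout and 9.82 to 10.43 in wild type samples. The desaturase Scd2 differed by -0.42 (SE 0.19), Acaca, the carboxylase that commits acetyl-CoA to fatty acids, by -0.19 (SE 0.10), and Elovl6, an elongase, by 0.16 (SE 0.15). Their limma adjusted p-values were 0.630, 0.682 and 0.857.

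Lipolysis genes (10 measured) and fatty acid uptake genes (9 measured) also had 0 past the threshold, with median differences of 0.04 and 0.02. Plin3, the widely expressed perilipin, read 9.74, 9.86, 10.14 and 9.65 in knockout samples 1 to 4, against 9.60, 9.52, 9.57 and 9.41 in wild type samples 1 to 4. Its groups did not overlap, and the difference was 0.32 (SE 0.10, limma adjusted p = 0.365). Plin2, which coats droplets in most cells, differed by -0.09 (SE 0.07), and Plin5, the perilipin of oxidative muscle, by 0.11 (SE 0.08). Angptl4, an inhibitor of lipoprotein lipase, differed by 0.32 (SE 0.12), the fatty acid transporter Slc27a1 by 0.16 (SE 0.06) and the lipase Lpl by -0.15 (SE 0.08). Their limma adjusted p-values were 0.497, 0.492 and 0.659.

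Transcription factors of adipocyte differentiation had 16 measured genes, 0 past the threshold and a median difference of -0.02. The zinc finger factors Klf4 and Klf15 differed by 0.31 (SE 0.10) and -0.22 (SE 0.08), and Cebpb, which acts early in adipogenesis, by -0.18 (SE 0.08). Rxrg, a partner of PPAR receptors that is abundant in muscle, differed by 0.16 (SE 0.06) and its groups did not overlap. In the order Klf4, Klf15, Cebpb and Rxrg, the limma adjusted p-values were 0.399, 0.479, 0.618 and 0.524.

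On the receiving side, 14 genes of adipokine reception were measured, 0 passed, and the median difference was 0.05. Adipor1 and Adipor2, the adiponectin receptors, are named here outside the rule and after their values were seen. Adipor1 read 12.68 to 12.81 in knockout and 12.78 to 12.89 in wild type samples, and Adipor2 11.86 to 11.99 in knockout and 11.85 to 11.86 in wild type samples, differences of -0.09 and 0.04. Lepr, the leptin receptor, differed by 0.13 (SE 0.08), and Appl1, the adaptor that binds the adiponectin receptors, by 0.11 (SE 0.06). Tlr4, the receptor for lipopolysaccharide, read 8.36, 8.22, 8.00 and 7.96 in knockout samples 1 to 4, against 7.82, 7.87, 7.87 and 7.44 in wild type samples 1 to 4. Its groups did not overlap, with a difference of 0.39 (SE 0.11, limma adjusted p = 0.347).

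The pathway that adipsin feeds, alternative complement, had 7 measured genes, 0 past the threshold and a median difference of 0.09. Of the 7, 6 had below-median signal. C3ar1, the receptor for the C3a fragment, read 8.31, 8.11, 8.45 and 8.23 in knockout samples 1 to 4, against 7.69, 7.88, 7.93 and 7.69 in wild type samples 1 to 4. Its groups did not overlap, with a difference of 0.48 (SE 0.08, limma adjusted p = 0.0763). Cfb, the substrate of adipsin, differed by 0.14 (SE 0.08, limma adjusted p = 0.718). Macrophages carry C3ar1 and Tlr4, and the mean of 11 macrophage markers was 8.39 to 8.70 in knockout and 8.09 to 8.46 in wild type samples. Of these markers 0 passed, 7 had an unadjusted p under 0.05 beside 7.90% of all genes, and 11 had a higher mean in knockout muscle, and their part in the C3ar1 and Tlr4 values was not tested.

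Of 17 other secreted adipocyte proteins 0 passed, with 13 higher and 4 lower in mean and a median difference of 0.05. Below-median signal was found for 11 of the 17. Agt, angiotensinogen, read 9.59, 9.45, 9.66 and 9.43 in knockout samples 1 to 4, against 9.17, 9.14, 9.22 and 9.07 in wild type samples 1 to 4. Its groups did not overlap, with a difference of 0.38 (SE 0.07, limma adjusted p = 0.0763). Retnla, the resistin-like protein of alternatively activated macrophages and fat, read 9.78, 9.26, 10.14 and 9.53 in knockout samples 1 to 4, against 8.86, 9.37, 8.58 and 8.71 in wild type samples 1 to 4. Wild type sample 2 lay above knockout sample 2, and the difference was 0.80 (SE 0.19, limma adjusted p = 0.210). Its relative Retn differed by -0.05 (SE 0.44) in the same samples, and the difference between the relatives was not tested.

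Among 21 relatives of the set (other perilipins, CIDE proteins, fatty acid carriers, carbonic anhydrases, PPARs, resistin-like and adiponectin-like proteins), 0 passed and the median difference was 0.02. C1qtnf9, an adiponectin relative, lay at 8.93 to 9.14 in knockout and 9.18 to 9.55 in wild type samples, which did not overlap, and did not pass. C1qtnf1, another, differed by 0.12 (SE 0.07).

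The lists of markers of other cells were also read in the 2 samples that stood apart for adipocyte genes, as a description. Wild type sample 2 was also the highest wild type sample for macrophages (8.46), for 11 fibroblast and preadipocyte markers (10.29, against 10.06 to 10.14 in the rest), for 10 endothelial markers, for 4 Schwann cell markers (8.91, against 8.58 to 8.68) and for 5 tendon markers (9.97, against 9.58 to 9.89). Wild type sample 3, the lowest for adipocyte genes, was not the lowest wild type sample for fibroblast, endothelial, macrophage or tendon markers, but was for muscle fibre, Schwann cell, lymphocyte and red blood cell markers. It was the highest of all samples for slow fibre markers (11.81). Lymphocyte markers, all 7 of below-median signal, averaged 6.91 to 7.12 in knockout and 6.94 to 7.05 in wild type samples, and 2 red blood cell markers averaged 7.72 to 7.88 in knockout and 7.77 to 7.97 in wild type samples. Over these lists of non-adipocyte markers the range within wild type was at most 0.39, that of the slow fibre and tendon lists, beside 1.30 for the mean of all 9 measured adipocyte genes. For the second adipocyte list the wild type samples spanned 7.95 to 8.62. The amount of fat taken with each muscle is not given in the labels, and its part in the adipocyte signal was not tested.

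**Figure D5:**
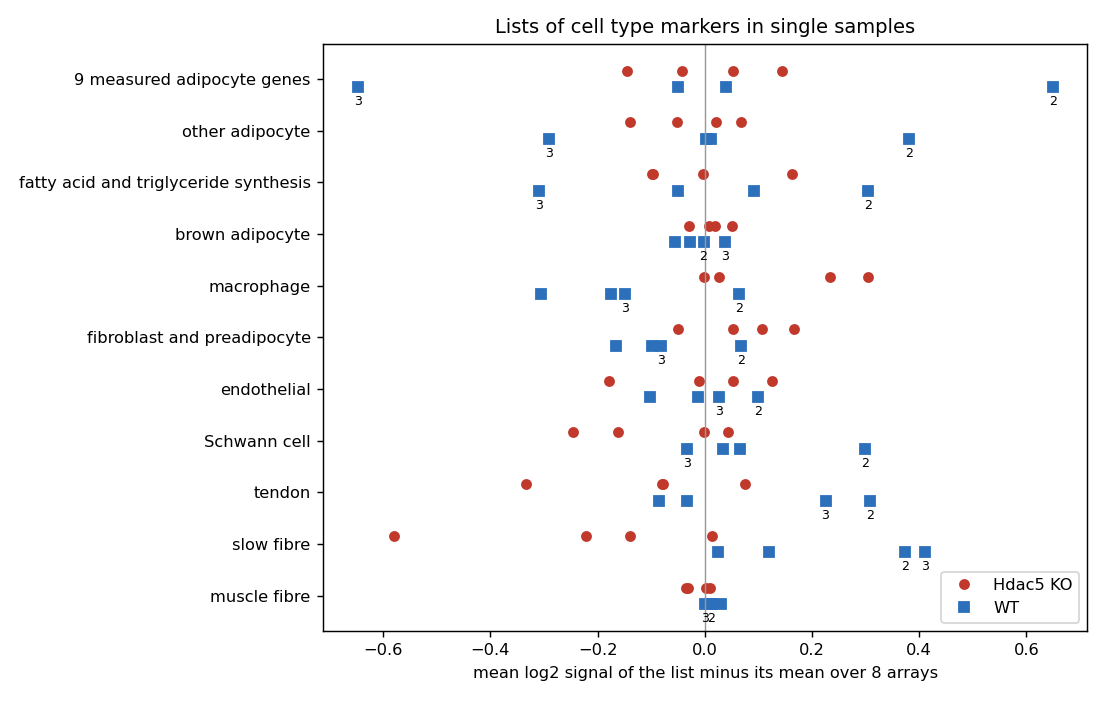
Mean log2 signal of each list of genes minus its mean over 8 arrays, with a red circle for each knockout and a blue square for each wild type sample; wild type samples 2 and 3 carry their numbers. For the 9 measured adipocyte genes, wild type samples 2 and 3 lie 1.30 log2 units apart, with means of 10.47 and 9.18.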

How the data were processed

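RNA from gastrocnemius of 4 HDAC5 KO and 4 HDAC5 WT mice was hybridised to Affymetrix gene arrays. The deposited values are log2 signals per probe set and array, made by the authors with Affymetrix Expression Console 4.0, per the submitters' processing notes. Neither background correction nor normalization is described in the sources used here. Array medians lay between 7.69 and 7.77, and the values were not normalized again. The platform annotation gave 1 symbol for 21789 of 35556 probe sets, several for 1621 and none for 12146. The brightest probe set by mean over 8 arrays stood for a gene, which gave 19938 genes. The members and lists were chosen with earlier results of these data known.

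Genotypes were compared with limma 3.58.1 in R 4.3.3 (lmFit and eBayes, genotype as the only term), as knockout minus wild type, with Benjamini-Hochberg adjustment over all genes and a threshold of 0.05. SE is limma's moderated standard error. The fit was tested on simulated data. Lists were described by counts and medians without a list test. Named genes were the members, Hdac5, the 10 genes most like Adipoq, and from each list up to 4 genes of smallest p and up to 3 of highest signal. Promoters came from RefSeq's GRCm38.p6 tables. The number of arrays limits the precision. Same-numbered samples of the genotypes were not taken as pairs. Their deviations from the group means correlated at 0.338, -0.115, -0.153 and 0.340 for numbers 1 to 4. The highest correlations of these knockout samples with a wild type sample of another number were 0.137, 0.204, 0.133 and 0.0069. Numbers 1 and 4 thus matched their own number best, and numbers 2 and 3 did not. Whether same-numbered samples share a batch was not tested, and the number as a block is among the alternatives.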

Additional observations from a re-analysis of the deposited data

Results flagged for a closer look

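Among the 9 adipocyte genes and Hdac5, each genotype's 4 samples were checked for a value whose gap to its neighbour took more of the group's range than Dixon's 95% critical value, and 4 of 20 groups had one, where chance gives about 1 in 20. Fabp4 was high in wild type sample 2 (12.03, where the rest of the group read 11.68 to 11.73). Car3 was low in wild type sample 2 (14.34), although the wild type samples spanned only 0.05. Plin4 was low in knockout sample 1 (10.56, against 10.77 to 10.80 in the other knockout samples). Hdac5 was high in knockout sample 4 (8.39, against 8.31 to 8.32), still far under every wild type sample. Adipoq, Retn, Lep, Cidec and Plin1 had no such value in either genotype. Where a group has an extreme at each end, however, each widens the range against which the other is judged. Wild type samples 2 and 3 were such ends for Adipoq, Retn and Cidec, so the check cannot decide whether they stand apart there.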

How the results depend on the processing

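Under 17 alternatives 0 adipocyte genes passed in any, with a smallest limma adjusted p of 0.555 (Retn without wild type sample 3). Lep was not tested with dim genes left out. Of 152 values of single members under alternatives, 142 kept the sign of the difference. Leaving out 1 sample at a time, the differences ran from -0.30 to 0.79 for Adipoq, -0.46 to 0.21 for Lep, -0.60 to 0.33 for Retn and -0.14 to 0.45 for Cidec, and the mean over the members from -0.21 to 0.22, the ends being those without wild type sample 3 and without wild type sample 2, except that the low end of Lep came without knockout sample 4. Without both of these wild type samples, chosen after seeing the data, Lep differed by 0.018, Lpin1 by -0.011 and 4 genes changed in all. Gpihbp1 ran from -0.14 to 0.021 with single samples left out. The number of genes changed, 13 as reported, was 28 with all probe sets fitted, 23 with quantile normalization, 33 with dim genes left out, 44 with trended and robust eBayes, 31 with array weights and 5 to 20 with single samples left out. The replicate number as a block gave 30, and 6 list genes in place of 0 (Agt, C3ar1, Myh7, Tnnc1, Tnni1 and Tnnt1). List genes past the threshold numbered 2 with dim genes left out (Agt and Tnnc1), 2 with trended and robust eBayes (Agt and C3ar1), 1 with array weights (Tnnc1) and 0 to 1 with single samples left out (Myl3, without knockout sample 3). The causes were not tested. With 4 arrays a group, the intervals of Adipoq, Retn and Lep include changes of over 1.5-fold in either direction.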

Other observations

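Beyond the genes named by rule, a few were singled out after their values were seen. Among the 30 genes with the largest within-genotype SD, 4 were adipocyte genes of the set and another 4 were in the second adipocyte list or the fatty acid synthesis list: Scd1, Cdo1, Nnat and Fasn. Nnat, neuronatin, a membrane proteolipid of brain and fat, read 7.61, 8.13, 7.94 and 8.25 in knockout samples 1 to 4, against 7.91, 9.17, 7.54 and 8.22 in wild type samples 1 to 4. Fasn, the fatty acid synthase, read 9.13, 8.64, 9.53 and 8.56 in knockout samples 1 to 4, against 9.32, 9.84, 8.27 and 9.14 in wild type samples 1 to 4. Prkar2b, the protein kinase A subunit abundant in fat, read 7.32, 7.17, 7.44 and 7.57 in knockout samples 1 to 4, against 7.51, 8.11, 6.71 and 7.45 in wild type samples 1 to 4. In all of these, wild type sample 2 was the highest and wild type sample 3 the lowest of the 8.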
